A study of Mus musculus with 6 samples.

Results

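The genes described here are mechanosensing genes of bone: ion channels that open on stretch or pressure, the polycystins, the main bone connexin, a pannexin and the ATP receptor linked to it, and the transcription coactivators YAP and TAZ. They were chosen by name, as Piezo1, Piezo2, Trpv4, Gja1, Pkd1, Pkd2, Panx1, P2rx7, Yap1 and Wwtr1. Of these 10 genes, 9 were followed through the 6 libraries, out of 22824 rows per library, and Piezo1 was not analysed here. Of the 9, 8 reached the level needed for testing, and Piezo2 did not.

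RNA was measured by paired-end sequencing of total RNA from mouse femurs on a C57BL/6 background. The OE group (3 libraries) came from mice that carried 9.6kb DMP1-Cre and R26-Wnt7b, a Wnt7b allele at the Rosa26 locus that Cre switches on, and the labels call all OE mice homozygous. Control femurs (Ctrl, 3 libraries) came from littermates that carried R26-Wnt7b, so both groups shared that allele. Dmp1 regulatory sequence drives Cre in osteocytes and mature osteoblasts. Age and sex are not given in the labels, which describe the femurs of both groups as cleared of cartilage and marrow cells. The labels do not tie the libraries to separate animals, so a p-value reflects how far these samples scatter, and that scatter may be technical.

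Bone cells sense load through several systems at the same time. PIEZO and TRPV4 channels let calcium in when the membrane is stretched or the cell swells, and polycystin-1 and polycystin-2 act at the primary cilium. Connexin 43, the product of Gja1, joins osteocytes and osteoblasts by gap junctions, pannexin 1 lets ATP out of cells, and the P2X7 receptor responds to that ATP. YAP (Yap1) and TAZ (Wwtr1) carry mechanical signals to the nucleus, where they act through TEAD transcription factors on genes such as Ccn1 and Ccn2, and Hippo pathway kinases hold them in check.

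Wnt7b itself did not separate the groups, and the summed osteoblast markers were low in 2 of the 3 Ctrl libraries. Wnt7b stood at 2.49, 0.661 and 0.295 FPKM (fragments scaled to transcript length and to the library's total) in OE 1, 2 and 3, against 0.909 in the library labelled Ctrl 1, with 0.00833 in Ctrl 2 and a listed 0 in Ctrl 3. The library labelled Ctrl 1 thus lay inside the OE range, so every OE against Ctrl direction below includes a library whose label is in doubt, unless it is left out by name. The label itself was not tested. Muscle markers also summed low in Ctrl 2 and Ctrl 3, at 267 and 400 FPKM, against 1447 to 1872 in the other libraries. A wrong label and a different tissue content of the femurs cannot be told apart here. The 12 osteoblast markers summed to 6952, 6588 and 4317 FPKM in OE, against 5956 in the library labelled Ctrl 1, with 460.0 in Ctrl 2 and 377 in Ctrl 3. Although the femurs are labelled as cleared of cartilage and marrow, 10 cartilage markers summed to between 406 and 732 FPKM in OE and between 30.3 and 571 in Ctrl, and 10 neutrophil markers to between 59285 and 167196 in OE and between 104046 and 143582 in Ctrl. Osteocalcin RNA (Bglap, an osteoblast gene) reached 2711, 3254 and 1891 FPKM in OE, against 2552, 91.8 and 58.8 in Ctrl. The osteocyte gene Dmp1 stood at 215, 109 and 83.8 FPKM in OE, against 141, 14.6 and 15.2 in Ctrl, and the osteoclast protease Ctsk at 1255, 828 and 416 in OE, against 1095, 137 and 104 in Ctrl. Erythroid markers (9 of 10 listed genes measured) stood apart in OE 3, at 45392 FPKM, against 1400.5 to 10054 in the other libraries. By limma none of 12177 genes differed between OE and Ctrl at the adjusted threshold of 0.05 (0.0% called in either direction). Without adjustment 999 had a p under 0.05, and 996 did by limma without a trend.

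Most of the mechanosensing genes were low in Ctrl 2 and Ctrl 3 and high in OE 1, while Panx1 and P2rx7 were nearly level across the libraries. All 8 genes tested had a positive difference between OE and Ctrl, where 43.7% of all genes tested did, but none passed limma over all genes. By limma 3 of the 8 (Gja1, Pkd2 and Yap1) had an unadjusted p under 0.05, where 999 of all 12177 genes did. None of the 8 had every OE value above every Ctrl value, which held for 4.59% of all genes tested. In 8 of the 9 genes the library labelled Ctrl 1 was no lower than the lowest OE library, P2rx7 being the exception. The doubt about the library labelled Ctrl 1 came from these same data, so p-values without it are no independent test. With that library left out, Gja1 and Yap1 passed limma as higher in OE, 2 of 8 where 4.25% of all genes were called higher. In that comparison 5 of the 8 (Gja1, Yap1, Wwtr1, Pkd2 and Trpv4) had every OE value above both Ctrl values, which held for 18.3% of all genes tested.

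**Figure D1:**
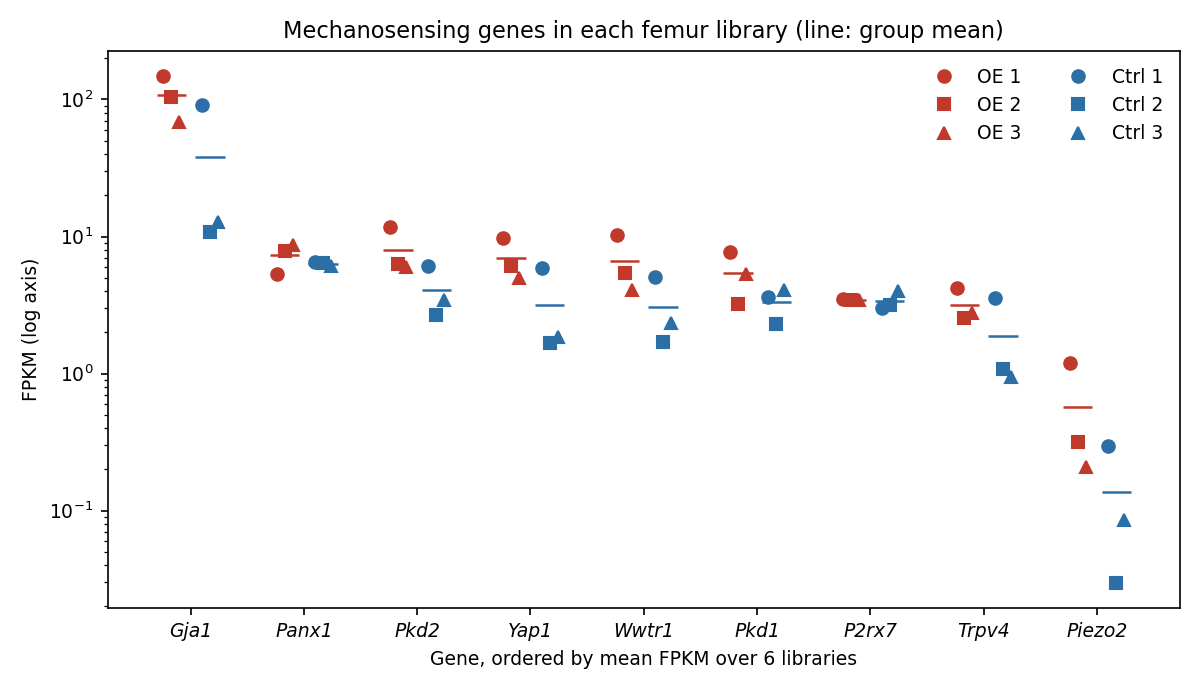
FPKM (log axis) of the 9 genes in each of the 6 libraries, OE in red left of Ctrl in blue, with a line at each group mean and 1 symbol shape per replicate number. Gja1 lies far above the others, from 10.8 to 148 FPKM, and for Gja1, Yap1, Wwtr1, Pkd2 and Trpv4 the Ctrl 2 and Ctrl 3 points lie below all OE points while the Ctrl 1 point lies among them.

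FPKM is scaled to transcript length, so levels can be ranked between genes. Averaged over the 6 libraries the order was Gja1 (72.6 FPKM), Panx1 (6.80), Pkd2 (6.04), Yap1 (5.04), Wwtr1 (4.83), Pkd1 (4.37), P2rx7 (3.43), Trpv4 (2.52) and Piezo2 (0.355). Gja1 was above Panx1, Pkd2 above Yap1, and Trpv4 above Piezo2 in 6 of 6 libraries. The other neighbours changed places: Panx1 was above Pkd2 in 5 libraries, Pkd1 above P2rx7 and P2rx7 above Trpv4 in 4 each, and Yap1 above Wwtr1 and Wwtr1 above Pkd1 in 3 each. Their mean log2 ratios, from 0.01 to 0.65, were smaller than the SD of those ratios over libraries, from 0.23 to 0.96.

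Because 5 of these genes were low in the same Ctrl libraries, the 250 bases upstream of their RefSeq transcription start (GRCm38.p6) are given here in the 5′ to 3′ direction of the gene, with P2rx7, which did not follow them, for comparison. Capitals mark exact matches on either strand to 5 motifs: the GC box GGGCGG bound by SP factors, the TEAD motif GGAATG, the AP-1 motif TGANTCA, the RUNX core TGTGGT and the TATA box TATAAA.
Gja1, chr10:56377050-56377299, plus strand: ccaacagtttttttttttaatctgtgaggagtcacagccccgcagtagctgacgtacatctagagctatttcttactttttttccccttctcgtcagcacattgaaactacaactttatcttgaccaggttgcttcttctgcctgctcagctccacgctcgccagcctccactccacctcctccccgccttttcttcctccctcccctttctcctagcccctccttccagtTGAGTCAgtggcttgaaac
Yap1, chr9:8004597-8004846, minus strand: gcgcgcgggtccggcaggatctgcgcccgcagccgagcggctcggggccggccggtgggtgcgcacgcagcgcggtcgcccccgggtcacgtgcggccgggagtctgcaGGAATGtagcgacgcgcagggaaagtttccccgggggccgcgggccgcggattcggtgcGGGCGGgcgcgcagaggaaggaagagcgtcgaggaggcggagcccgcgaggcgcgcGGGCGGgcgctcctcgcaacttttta
Wwtr1, chr3:57575911-57576160, minus strand: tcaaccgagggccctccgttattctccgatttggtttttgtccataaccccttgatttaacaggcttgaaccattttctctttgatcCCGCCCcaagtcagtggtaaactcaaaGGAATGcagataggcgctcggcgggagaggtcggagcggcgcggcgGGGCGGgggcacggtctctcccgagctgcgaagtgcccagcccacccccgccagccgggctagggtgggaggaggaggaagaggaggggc
Pkd2, chr5:104459207-104459456, plus strand: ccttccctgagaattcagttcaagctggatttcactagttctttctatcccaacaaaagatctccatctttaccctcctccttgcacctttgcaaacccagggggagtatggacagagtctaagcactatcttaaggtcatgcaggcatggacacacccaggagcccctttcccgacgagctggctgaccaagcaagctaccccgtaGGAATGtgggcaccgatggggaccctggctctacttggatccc
Trpv4, chr5:114658422-114658671, minus strand: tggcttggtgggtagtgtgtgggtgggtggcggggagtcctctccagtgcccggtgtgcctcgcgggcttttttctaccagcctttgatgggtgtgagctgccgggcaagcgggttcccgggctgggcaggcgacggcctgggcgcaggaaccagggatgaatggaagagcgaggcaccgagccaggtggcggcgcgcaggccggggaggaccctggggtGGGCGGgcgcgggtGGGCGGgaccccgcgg
P2rx7, chr5:122643677-122643926, plus strand: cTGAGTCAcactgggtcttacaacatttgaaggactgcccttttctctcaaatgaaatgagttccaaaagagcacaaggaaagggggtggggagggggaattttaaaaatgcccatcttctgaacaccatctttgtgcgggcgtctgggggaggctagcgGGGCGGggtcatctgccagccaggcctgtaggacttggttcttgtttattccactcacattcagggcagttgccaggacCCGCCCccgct

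The TEAD letters GGAATG were found upstream of Yap1, Wwtr1 and Pkd2, 3 of the 8 genes tested, against 12.6% of 32851 promoter windows of the same length. Here and below a gene counted if any of its windows matched, and the background is a share of windows, from 27025 genes. Wwtr1 and P2rx7 had more than 1 window. In Yap1 they covered bases -141 to -136 and in Wwtr1 bases -136 to -131, counted back from the start, and in Pkd2 they lay closer, at -43 to -38. GC boxes were found upstream of Yap1, Wwtr1, Trpv4, Pkd1 and P2rx7 (5 of 8, against 32.7% of windows). AP-1 letters were found upstream of Gja1, at -19 to -13, and of P2rx7 (2 of 8, against 6.75%). RUNX core letters were found upstream of Panx1 alone (1 of 8, against 14%), and TATAAA upstream of none of the 8 (12.4% of windows). Windows upstream of Yap1 and Trpv4 were rich in G and C, at 76.4% and 72.0%, where the median of all windows was 52.4%, and that of Gja1 was at 50%. A match describes the letters only, since binding was not measured.

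Gja1 had the widest range of the 9 genes on the log2(FPKM + 1) scale. It encodes connexin 43 and lies on chromosome 10, 56377330 to 56402513 (GRCm38, plus strand, ENSMUSG00000050953), with up to 3 exons in 8 annotated transcripts. Gja1 stood at 148, 104 and 69.0 FPKM in OE 1, 2 and 3, against 91.0 in the library labelled Ctrl 1, with 10.8 in Ctrl 2 and 12.8 in Ctrl 3. The Ctrl 1 value lay inside the OE range, and the other Ctrl values lay far below it. Group means were 107 ± 39.7 FPKM in OE, against 38.2 ± 45.7 in Ctrl (SD, n = 3 each). The difference in log2(FPKM + 1) was 2.06 (SE 0.78, limma adjusted p = 0.554), within the spread between replicates. Without the library labelled Ctrl 1, it was 3.01 (SE 0.32, limma adjusted p = 0.00756). In a bulk library fewer cells of a type and less RNA per cell cannot be told apart, and this holds for each gene here.

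The level of Gja1 moved with the osteoblast markers of the same library. Its log2(FPKM + 1) minus the mean of the 12 osteoblast markers was -0.06, -0.08 and -0.30 in OE 1, 2 and 3, against -0.25 in the library labelled Ctrl 1, with -0.10 in Ctrl 2 and 0.10 in Ctrl 3. The groups overlapped on this measure, with a difference of -0.06 (exact two-sided permutation p = 0.7; 3 against 3 libraries allow no p below 0.1). Its sign turned without OE 3 (0.02) and without Ctrl 3 (0.03). Against 12 osteocyte markers in place of the osteoblast markers the difference was 1.24, with all OE values above all Ctrl values and the smallest p this design allows, an exact permutation p = 0.1. Pdpn, one of those 12, is listed at 0 in all libraries, and Kl in Ctrl 2 and Ctrl 3. The osteocyte markers also ranged less, from a mean level of 4.35 in OE 1 to 2.45 in Ctrl 2, against 7.28 and 3.67 for the osteoblast markers. They summed to 227 FPKM in Ctrl 2, where Dmp1, one of them, stood at 14.6. The other mechanosensing genes had lower values in OE than in Ctrl relative to the osteoblast markers, by differences of -1.09 (Yap1), -1.21 (Wwtr1), -1.29 (Pkd2), -1.49 (Trpv4), -1.60 (Pkd1), -1.70 (Piezo2), -1.97 (Panx1) and -2.10 (P2rx7). Against the osteocyte markers these differences were 0.21 for Yap1, 0.0893 for Wwtr1, 0.0064 for Pkd2, -0.19 for Trpv4, -0.30 for Pkd1, -0.40 for Piezo2, -0.67 for Panx1 and -0.80 for P2rx7. The direction for Yap1, Wwtr1 and Pkd2 thus turned with the marker list, and the others were smaller. Against the osteocyte markers all OE values of Yap1 also lay above all its Ctrl values (exact permutation p = 0.1). For Wwtr1 the exact permutation p was 0.9. With the osteoblast markers, of these 9 genes, none reached an exact permutation p below 0.2 with 6 libraries, and the Benjamini-Hochberg adjusted p was at least 0.45.

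The 3 genes whose profile over the 6 libraries lay closest to that of Gja1 were Sp7, Wif1 and P4ha2. Likeness was the mean absolute difference in log2(FPKM + 1) after each gene was centred on its own mean, over 6 libraries, and it was 0.09, 0.11 and 0.11. Sp7, the transcription factor needed to form osteoblasts and one of the 12 osteoblast markers, stood at 39.3, 24.0 and 18.3 FPKM in OE, against 28.0 in the library labelled Ctrl 1, with 2.35 in Ctrl 2 and 2.67 in Ctrl 3. P4ha2, a prolyl hydroxylase of collagen, stood at 20.5, 14.6 and 8.06 FPKM in OE, against 16.3, 0.752 and 0.921 in Ctrl in the same order. Among the other mechanosensing genes the nearest to Gja1 was Yap1, at 0.68.

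Gja1 made up more of the connexin RNA in the OE libraries and the library labelled Ctrl 1 than in Ctrl 2 and Ctrl 3. Its share of the FPKM of 19 connexin genes was 91.9%, 91.5% and 92.3% in OE, against 87.7% in the library labelled Ctrl 1, with 53.5% in Ctrl 2 and 60.7% in Ctrl 3. Of the 20 other genes in the connexin and pannexin list, which also holds Tjp1, the scaffold protein ZO-1, 14 were below 1 FPKM in all libraries, and 6 were tested. Their median difference was 0.30, where that of all genes tested was -0.04, and none passed limma. Panx3, a pannexin of osteoblasts and prehypertrophic chondrocytes, stood at 6.25, 8.57 and 5.22 FPKM in OE, against 4.41 in the library labelled Ctrl 1, with 0.190 in Ctrl 2 and 0.432 in Ctrl 3. All OE values of Panx3 lay above all Ctrl values, which held for 4.59% of all genes tested. Its difference was 1.85 (SE 0.56, limma adjusted p = 0.554), and 2.53 without the library labelled Ctrl 1 (SE 0.23, limma adjusted p = 0.00448), where 4.25% of all genes were called higher.

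Yap1 and Wwtr1, the YAP and TAZ genes, ran nearly side by side. Yap1 lies on chromosome 9, 7931999 to 8004596 (minus strand, ENSMUSG00000053110), and Wwtr1 on chromosome 3, 57455649 to 57575910 (minus strand, ENSMUSG00000027803). Yap1 stood at 9.78, 6.05 and 5.0 FPKM in OE 1, 2 and 3, against 5.91 in the library labelled Ctrl 1, with 1.66 in Ctrl 2 and 1.85 in Ctrl 3. Wwtr1 stood at 10.3, 5.41 and 4.09 FPKM in OE, against 5.11, 1.71 and 2.32 in the same order of Ctrl. For both genes OE 1 was the highest library and Ctrl 2 the lowest, and the groups overlapped through the library labelled Ctrl 1.

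Mean Yap1 was 6.94 ± 2.51 FPKM in OE, against 3.14 ± 2.40 in Ctrl, and mean Wwtr1 was 6.61 ± 3.29 in OE, against 3.05 ± 1.81 in Ctrl (SD, n = 3 each). In log2(FPKM + 1) the difference was 1.04 for Yap1 (SE 0.41) and 0.92 for Wwtr1 (SE 0.40), both at a limma adjusted p of 0.554. Without the library labelled Ctrl 1 the Yap1 difference was 1.48 (SE 0.27, limma adjusted p = 0.0331) and that of Wwtr1 1.26 (SE 0.34, limma adjusted p = 0.116). The FPKM ratio of Yap1 to Wwtr1 was 0.947, 1.12 and 1.22 in OE, against 1.16, 0.973 and 0.796 in Ctrl, so neither gene was ahead throughout. Yap1 shares 116 bases of exon with Gm20416 on the opposite strand, where reads cannot be told apart without strand information. The log2 ratio differed by 0.18 between OE and Ctrl (exact two-sided permutation p = 0.5, adjusted p = 0.5 over 3 pairs of genes). Closest in profile to Yap1 were Loxl3 (0.06), Fermt2 and Efnb1 (0.07 each), and to Wwtr1 Parva (0.05), Bicc1 (0.06) and Gpr137b (0.07).

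**Figure D2:**
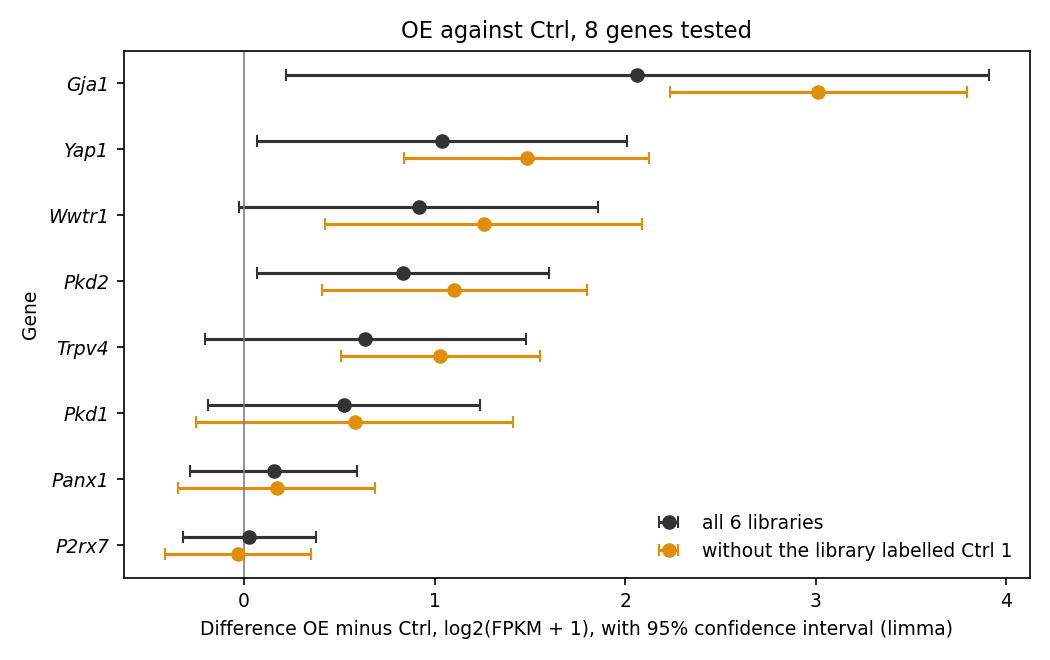
Difference between OE and Ctrl in log2(FPKM + 1) for the 8 genes tested, with 95% confidence intervals from limma, for all 6 libraries (black) and without the library labelled Ctrl 1 (orange). Without that library the difference is 3.01 for Gja1 and 1.48 for Yap1, against 2.06 and 1.04 with it, and the intervals of Panx1, P2rx7 and Pkd1 include 0 in both.

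No gene of the Hippo pathway passed the test. Of 21 Hippo kinases, adaptors and TEAD factors 19 were tested, and their median difference was 0.20, where the median of all genes tested was -0.04. Positive differences were found in 15 of 19, where 43.7% of all genes tested had one. The kinase gene Lats2, chosen after its values were seen, stood at 17.0, 13.1 and 12.3 FPKM in OE, against 12.2, 16.2 and 18.8 in Ctrl. Amotl1, an angiomotin that binds YAP, had the smallest p of this list and stood at 12.9, 6.30 and 5.66 FPKM in OE, against 6.09, 1.69 and 2.63 in Ctrl (difference 1.09, SE 0.42, limma adjusted p = 0.554). Tead1, a DNA-binding partner of both coactivators, stood at 3.03, 1.10 and 1.61 FPKM in OE, against 1.15, 0.396 and 0.630 in Ctrl (difference 0.73, SE 0.29, limma adjusted p = 0.554). For Amotl1 and Tead1, as for Yap1, the library labelled Ctrl 1 lay among the OE values.

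Known targets of YAP and TAZ had differences in both directions. Of 22 listed, 19 were tested, none passed limma, and the median difference was 0.24, with 14 positive and 5 negative, where 43.7% of all genes tested were positive. With a filter of 5 FPKM, which drops the lower targets, the median was -0.05. Without the library labelled Ctrl 1, Ccn1 and Ccn2 passed as higher in OE, 2 of 19 where 4.25% of all genes did, and both were chosen after their values were seen. Ccn1, a secreted matricellular protein, stood at 40.3, 21.8 and 59.6 FPKM in OE, against 33.3 in the library labelled Ctrl 1, with 6.15 in Ctrl 2 and 6.94 in Ctrl 3 (difference without that library 2.35, SE 0.39, limma adjusted p = 0.026). Ccn2, its close relative, stood at 61.5, 33.0 and 43.4 FPKM in OE, against 45.9, 12.7 and 14.4 in the same order of Ctrl (1.65, SE 0.27, limma adjusted p = 0.0249). Rbms3, an RNA-binding protein gene, had every OE value above every Ctrl value, at 2.83, 1.48 and 2.37 FPKM in OE, against 1.38, 0.511 and 0.672 in Ctrl (difference 0.80, SE 0.26, limma adjusted p = 0.554). Nuak2, a kinase gene, had every OE value below every Ctrl value, at 10.3, 12.1 and 10.5 FPKM in OE, against 13.5, 16.0 and 17.2 in Ctrl (difference -0.47, SE 0.15, limma adjusted p = 0.554). Of all genes tested, 8.97% had every OE value below every Ctrl value. Ankrd1, often used as a YAP readout and also chosen after its values were seen, was below 1 FPKM in all libraries and was not tested.

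The polycystins differed from each other in how they followed the libraries. Pkd2, on chromosome 5, 104459450 to 104505819 (plus strand, ENSMUSG00000034462), encodes the channel polycystin-2, and stood at 11.7, 6.34 and 6.01 FPKM in OE, against 6.08 in the library labelled Ctrl 1, with 2.69 in Ctrl 2 and 3.42 in Ctrl 3. Pkd1, on chromosome 17, 24549834 to 24596508 (plus strand, ENSMUSG00000032855), encodes its receptor-like partner, and stood at 7.72, 3.20 and 5.28 FPKM in OE, against 3.60, 2.30 and 4.09 in the same order of Ctrl. Only for Pkd2 did the OE values all lie above Ctrl 2 and Ctrl 3, since Pkd1 in OE 2 was below Ctrl 3.

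For Pkd2 the difference was 0.83 (SE 0.32, limma adjusted p = 0.554), and for Pkd1 0.53 (SE 0.30, limma adjusted p = 0.564). Without the library labelled Ctrl 1 they were 1.10 (SE 0.29, limma adjusted p = 0.102) and 0.58 (SE 0.34, limma adjusted p = 0.48). The ratio of Pkd1 to Pkd2 was 0.661, 0.506 and 0.879 in OE, against 0.592, 0.856 and 1.2 in Ctrl, and the log2 ratio differed by -0.35 (exact two-sided permutation p = 0.5, adjusted p = 0.5). Leaving out 1 library moved the Pkd1 difference to between 0.27 (without OE 1) and 0.80 (without OE 2), and the log2 ratio to between -0.61 (without the library labelled Ctrl 1) and -0.0979 (without Ctrl 3). Pkd1 shares 693 bases of exon with Tsc2 on the opposite strand, and without strand information reads there cannot be told apart. Closest in profile to Pkd2 were Sash1 (0.03), Antxr1 (0.04) and Inppl1 (0.05), and to Pkd1 Sema6d (0.10), Nid1 and Runx2 (0.12 each). Runx2, also one of the 12 osteoblast markers, stood at 20.5, 10.2 and 11.7 FPKM in OE, against 8.87, 7.46 and 10.9 in Ctrl. Unlike the sum of those markers, Runx2 was thus not low in Ctrl 3, which lay above OE 2. Other primary cilium genes (15 of 18 tested) had a median difference of 0.17, with 13 positive, where 43.7% of all genes tested were, and none passing limma. Tulp3, which brings receptors into the cilium, had the smallest p of these, at 2.89, 1.61 and 2.47 FPKM in OE, against 1.89, 1.09 and 1.07 in Ctrl (difference 0.50, SE 0.23, limma adjusted p = 0.554). Kif3a, a subunit of the kinesin that builds cilia, had every OE value above every Ctrl value, at 3.73, 2.74 and 3.12 FPKM in OE, against 2.63, 2.08 and 2.41 in Ctrl (difference 0.31, SE 0.16, limma adjusted p = 0.561).

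Of the stretch-linked channels among these genes, Trpv4 was measured at a low level and Piezo2 lower still. Trpv4, a calcium channel, on chromosome 5, 114622152 to 114658421 (minus strand, ENSMUSG00000014158), stood at 4.19, 2.56 and 2.76 FPKM in OE, against 3.56 in the library labelled Ctrl 1, with 1.08 in Ctrl 2 and 0.948 in Ctrl 3. The difference was 0.64 (SE 0.35, limma adjusted p = 0.563), and 1.03 without the library labelled Ctrl 1 (SE 0.22, limma adjusted p = 0.0529), just short of the threshold. Its nearest profiles were Rcan1 (0.06), Serpine2 and Npr2 (0.07 each). Piezo2, best known as the touch channel of sensory neurons, lies on chromosome 18, 63010213 to 63387183 (minus strand, ENSMUSG00000041482). It stood at 1.19, 0.317 and 0.207 FPKM in OE, against 0.294, 0.0299 and 0.0857 in Ctrl, so a single library, OE 1, reached 1 FPKM. The log2(FPKM + 1) difference was 0.42 (exact two-sided permutation p = 0.2), and it was 0.16 without OE 1.

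Of 20 other stretch- and calcium-linked channels 11 were tested, none passed limma, and their median difference was 0.07, with 6 positive and 5 negative. With a filter of 5 FPKM the median was -0.15. Kcnk2, the stretch-opened potassium channel TREK-1 (chosen after its values were seen), stood at 9.77, 5.89 and 3.32 FPKM in OE, against 5.92 in the library labelled Ctrl 1, with 0.864 in Ctrl 2 and 0.598 in Ctrl 3. It passed without the library labelled Ctrl 1 (difference 1.99, SE 0.37, limma adjusted p = 0.0379), where 4.25% of all genes were called higher. Scnn1a, a subunit of the epithelial sodium channel, had every OE value below every Ctrl value, at 6.20, 6.6 and 7.42 FPKM in OE, against 9.16, 10.5 and 9.52 in Ctrl (difference -0.47, SE 0.13, limma adjusted p = 0.554). Cacna2d1, an auxiliary subunit of voltage-gated calcium channels, had every OE value above every Ctrl value, at 3.37, 1.82 and 2.47 FPKM in OE, against 1.58, 0.815 and 1.16 in Ctrl (difference 0.69, SE 0.23, limma adjusted p = 0.554).

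Panx1, the ATP-release channel, and P2rx7, the ATP-gated receptor, were close to level in all libraries. Panx1, on chromosome 9, 15002128 to 15045478 (minus strand, ENSMUSG00000031934), stood at 5.35, 7.83 and 8.66 FPKM in OE, against 6.46, 6.44 and 6.05 in Ctrl. P2rx7, on chromosome 5, 122643911 to 122691432 (plus strand, ENSMUSG00000029468), stood at 3.49, 3.44 and 3.46 FPKM in OE, against 3.03, 3.17 and 4.0 in Ctrl. Here Ctrl 2 and Ctrl 3 were not the low libraries: Panx1 was lowest in OE 1, and P2rx7 highest in Ctrl 3. P2rx7 is also widely expressed in blood cells, macrophages and T cells among them.

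The Panx1 difference was 0.16 (SE 0.18, 95% confidence interval -0.28 to 0.59, limma adjusted p = 0.76), and that of P2rx7 0.03 (SE 0.15, interval -0.32 to 0.38, limma adjusted p = 0.96). The Panx1 difference was 0.34 without OE 1, 0.10 without OE 2 and 0.03 without OE 3. The P2rx7 difference turned to -0.03 without the library labelled Ctrl 1 and to -0.01 without Ctrl 2. The ratio of Gja1 to Panx1 was 27.7, 13.3 and 7.97 in OE, against 14.1 in the library labelled Ctrl 1, with 1.68 in Ctrl 2 and 2.11 in Ctrl 3. Its log2 value differed by 1.96 between OE and Ctrl (exact two-sided permutation p = 0.3, adjusted p = 0.5 over 3 pairs). Nearest in profile to P2rx7 were Ankfy1, Ets1 and Eps15l1 (0.02 each), and to Panx1 Eef1e1, Tdp2 and Mrpl50 (0.06 each).

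Most other purinergic receptors and ectonucleotidases had negative differences. Of 16 listed 11 were tested, 10 of them with a negative difference, which 56.3% of all genes tested had, the median of the 11 was -0.24, and none passed limma. Blood cell markers also differed between the libraries: 10 megakaryocyte markers summed to 419.6, 734 and 2295 FPKM in OE, against 722, 1611 and 1331 in Ctrl. The T and NK cell markers (9 of 10 measured) summed to 99.6, 143 and 87.0 FPKM in OE, against 151, 202 and 137 in Ctrl. P2rx1, an ATP-gated channel of platelets chosen after its values were seen, stood at 8.05, 12.9 and 21.7 FPKM in OE, against 12.6, 26.2 and 22.8 in Ctrl. P2rx1 was lowest in OE 1 and highest in Ctrl 2, and the megakaryocyte sum was lowest in OE 1 and highest in OE 3. The part of these cells in the purinergic values was not tested. P2ry13, an ADP receptor, stood at 7.47, 7.29 and 7.16 FPKM in OE, against 7.76 in the library labelled Ctrl 1, with 12.2 in Ctrl 2 and 12.9 in Ctrl 3. It passed as lower in OE without that library (difference -0.71, SE 0.14, limma adjusted p = 0.0401), where 0.649% of all genes were called lower. Nt5e, the ectoenzyme CD73 that makes adenosine, was the one positive gene, at 4.64, 5.17 and 3.56 FPKM in OE, against 4.33, 2.01 and 2.26 in Ctrl (difference 0.53, SE 0.25, limma adjusted p = 0.554).

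**Figure D3:**
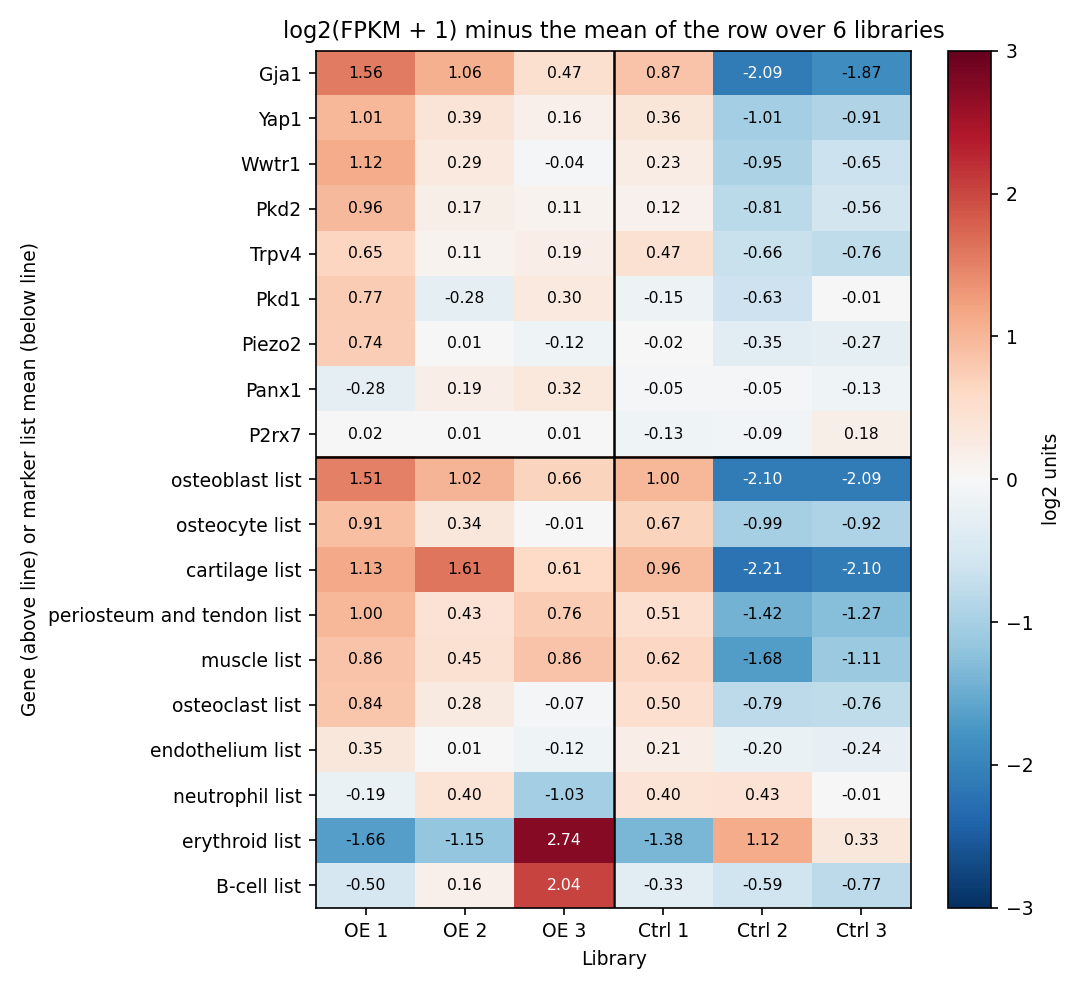
Centred log2(FPKM + 1) of the 9 genes (above the line) and of the means of 10 marker lists (below it) in each library, OE left of Ctrl, red above and blue below the mean of the row. Gja1 stands at 1.56 in OE 1 and -2.09 in Ctrl 2, close to the osteoblast list at 1.51 and -2.10, while Panx1 and P2rx7 stay between -0.28 and 0.32.

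Genes of the actin cytoskeleton, focal adhesions and nuclear envelope had 20 of 20 tested, 14 of them negative, where 56.3% of all genes tested were, with a median of -0.23 and none passing limma. Zyx, the focal adhesion protein zyxin, had every OE value below every Ctrl value, at 203, 241 and 199 FPKM in OE, against 286, 306 and 336 in Ctrl (difference -0.53, SE 0.17, limma adjusted p = 0.554). Fermt2, which encodes the integrin activator kindlin-2, stood at 15.6, 11.2 and 10.1 FPKM in OE, against 10.5 in the library labelled Ctrl 1, with 3.39 in Ctrl 2 and 3.46 in Ctrl 3. Without that library Fermt2 (1.56, SE 0.20, limma adjusted p = 0.0125) and Ptk2, which encodes focal adhesion kinase and was chosen after its values were seen (0.91, SE 0.19, limma adjusted p = 0.0493), passed as higher in OE, 2 of 20 where 4.25% of all genes did.

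**Figure D4:**
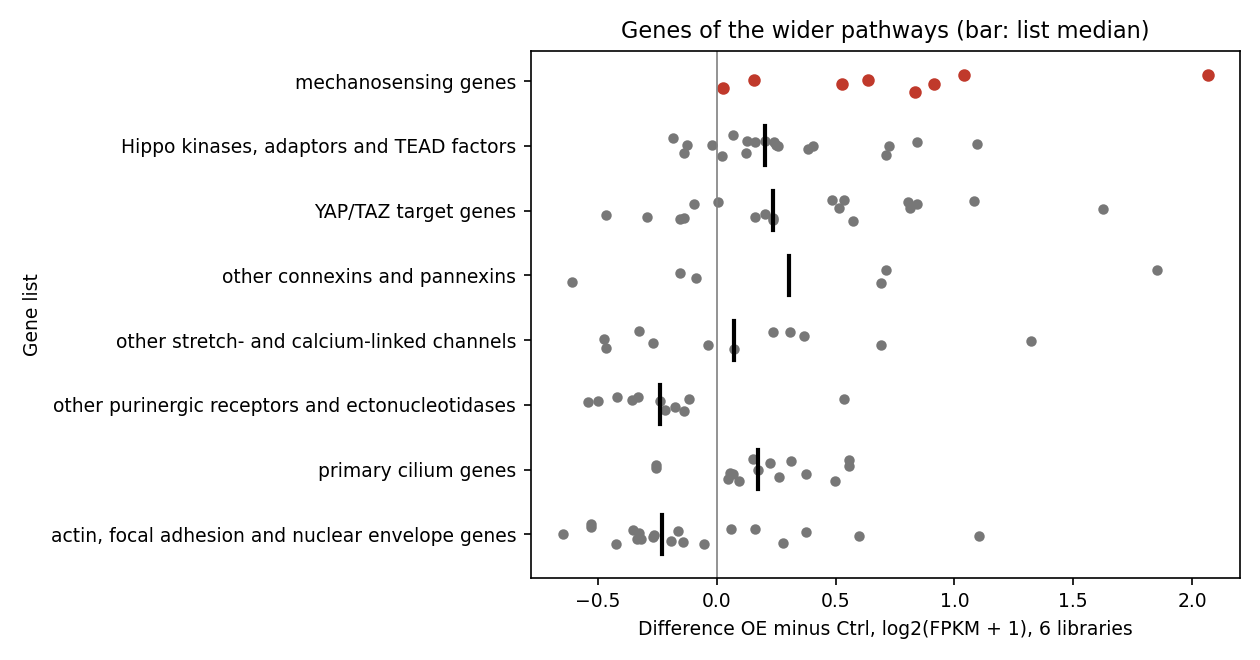
Difference between OE and Ctrl in log2(FPKM + 1) over 6 libraries for each tested gene of 7 lists of the wider pathways (grey, with the list median as a bar) and for the 8 mechanosensing genes tested (red). List medians run from -0.24 for purinergic genes to 0.30 for connexins and pannexins, and Gja1 is the farthest red point at 2.06.

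Markers of other cell types, and genes grouped by transcript length, also differed between the libraries. Muscle markers (9 of 10 listed genes measured) summed to between 1447 and 1872 FPKM in OE and between 267 and 1666 in Ctrl, and the 10 periosteum and tendon markers to between 455 and 706 in OE and between 68.0 and 497 in Ctrl, with the lowest sums in Ctrl 2. The 10 cartilage markers were lowest in Ctrl 2 too, and no marker of these 3 lists was at 0 in any library. Endothelial markers (10 of 10) summed to between 118 and 158 FPKM in OE and between 104 and 142 in Ctrl. OE 1 was the highest library for 6 of the 8 genes tested, where it was highest for 19.2% of all genes tested. Genes whose longest annotated transcript has 5000 bases or more lay, at the median, 0.15, -0.05 and 0.03 (log2) from their own mean in OE 1, 2 and 3, against -0.12, -0.07 and 0.12 in the Ctrl libraries. Genes under 2000 bases lay at -0.18, 0.15 and -0.07 in OE, against 0.18, 0.15 and -0.16 in Ctrl. Long genes were thus highest, at the median, in OE 1 and Ctrl 3. Of the 9 mechanosensing genes 5 (Piezo2, Pkd1, Pkd2, Panx1 and Yap1) have such long transcripts, up to 14164 bases for Pkd1. Gja1, Wwtr1, Trpv4 and P2rx7 have shorter ones. The part of these other cells and of transcript length in the differences above was not tested.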

How the data were processed

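Femur RNA from 3 OE and 3 Ctrl samples was sequenced in paired-end mode, and 1 table per library was analysed. Its values are FPKM as deposited by the authors, per the file headers. The submitters' processing notes name TopHat2, Cufflinks, DESeq and mm10, with no role or version, and how strand and multiply mapped reads were treated is not given in the sources used here. There are 22824 rows per library, 21606 with an Ensembl identifier, of which 21172 matched a gene symbol. FPKM totals were 596413 to 775942 per library. Absolute depth is unknown; steps between low values gave relative depths of 1.00 to 1.18. Since an estimate that failed may appear as an exact 0, such genes are called listed at 0.

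The 12177 genes that reached 1 FPKM in 3 or more libraries were tested on log2(FPKM + 1) by limma 3.58.1 in R 4.3.3, with an intensity trend and Benjamini-Hochberg adjustment over all of them, a threshold of 0.05, and OE minus Ctrl as the difference. Fold changes on this scale are understated for low genes. Relative levels, ratios and Piezo2 had an exact two-sided permutation test over libraries, written in Python 3.11.15. Confidence intervals used t quantiles from scipy 1.17.1. The fit was also run on simulated data in which genes varied independently of each other. Shifts shared by the genes of a library were not simulated. The genes, the gene and marker lists and the tests were chosen with earlier results of these data known. Named are the 10 genes, Wnt7b, Bglap, Dmp1 and Ctsk, the 2 genes of smallest p in each list, and the 3 nearest profiles of each gene tested, among genes averaging at least 5 FPKM. A gene that this rule names is not reported here. Genes outside this rule are marked as chosen after their values were seen. Promoter windows come from RefSeq (GRCm38.p6) and gene positions from the GENCODE annotation of GRCm38. Alternatives were other filters, pseudocounts and scalings, array weights, a replicate block and leaving out libraries.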

Additional observations from a re-analysis of the deposited data

How the results depend on the processing

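With all 6 libraries weighted equally, no gene was called under no filter, a filter of 5 FPKM, a pseudocount of 0.1, either other scaling, or limma without a trend. The median difference of all genes was -0.04 as deposited, -0.03 after trimmed-mean scaling and 0.04 after scaling without marrow and muscle genes. P2rx7, Pkd1 and Trpv4 had no value at the 5 FPKM filter. At that filter the median differences of the target and channel lists turned negative (-0.05 and -0.15), while those of the other lists kept their sign. Array weights, which gave Ctrl 2 a weight of 5.82 and the other libraries 0.414 to 1.35, called 1394 genes, and leaving out the library labelled Ctrl 1 together with OE 3 called 1388. Leaving out 1 library at a time called 0 to 597, with all calls made without the library labelled Ctrl 1. The cause of these shifts was not tested.

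Under array weights the differences were 3.12 for Gja1, 1.59 for Yap1, 1.51 for Wwtr1, 1.30 for Pkd2 and 1.01 for Trpv4, all past the threshold (limma adjusted p = 0.037 to 0.0463). Without the library labelled Ctrl 1 and OE 3, a fit of OE 1 and OE 2 against Ctrl 2 and Ctrl 3, they were 3.29, 1.66, 1.5, 1.26 and 1.09 (limma adjusted p = 0.000407 to 0.03), and that of P2rx7 was -0.0336. The weights were estimated from these same data, with 0.414 for the library labelled Ctrl 1. The libraries left out were chosen with earlier results of these data known. The p-values of both fits are thus no independent test. Leaving out 1 library gave 1.54 to 3.01 for Gja1, 0.80 to 1.48 for Yap1 and -0.0335 to 0.12 for P2rx7. In the order Hippo genes (19 tested), targets (19), connexins and pannexins (6), channels (11), purinergic genes (11), cilium (15) and actin genes (20), array weights called 4, 9, 4, 3, 2, 1 and 2 genes, where 11.4% of all genes were called, and leaving out both libraries called 2, 4, 3, 2, 6, 3 and 2, where 11.4% were. Leaving out 1 library called 0 to 2 targets, 0 to 1 connexins and pannexins, 0 to 1 channels, 0 to 1 purinergic genes and 0 to 2 actin genes. All these calls were made without the library labelled Ctrl 1, where 4.25% of all genes were called higher and 0.649% lower.

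Against osteocyte in place of osteoblast markers the relative levels turned to 1.24 for Gja1, 0.21 for Yap1, 0.0893 for Wwtr1 and 0.0064 for Pkd2, and leaving out 1 library gave -0.15 to 0.0321 for Gja1. Same-numbered libraries deviated together with correlations of 0.44, 0.09 and 0.31, so the numbers were not taken as pairing, and not every library correlated best with its own number. With the replicate block no gene was called (smallest limma adjusted p = 0.191, with 1797 genes at an unadjusted p under 0.05), and Gja1 had a limma adjusted p of 0.207; with 1 library of each group per number the block cannot alter a difference. Piezo2, at 0.0299 to 1.19 FPKM, is limited by the depth, which is unknown.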

Other observations

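A few genes of the wider lists, chosen after their values were seen, were highest in OE 3, the library with the highest erythroid marker sum (45392 FPKM, against 1400.5 to 10054 in the others). Other marker sums were also highest in OE 3: B cell (536 FPKM, against 62.9 to 126), macrophage (610.5, against 348 to 426), megakaryocyte (2295, against 419.6 to 1611), adipocyte (305, against 75.3 to 261) and marrow stroma (486, against 217 to 305). Ift140, a part of the transport machinery of cilia, stood at 5.64, 7.52 and 43.7 FPKM in OE, against 6.94, 18.7 and 13.1 in Ctrl. Axl, a receptor tyrosine kinase on the YAP and TAZ target list, stood at 13.2, 10.1 and 32.1 FPKM in OE, against 13.1, 18.3 and 17.9 in Ctrl. Adcy6, an adenylyl cyclase, stood at 9.86, 6.05 and 18.8 FPKM in OE, against 7.16, 9.39 and 9.33 in Ctrl. Trpc6, a calcium-permeable channel, stood at 1.83, 2.09 and 5.91 FPKM in OE, against 1.87, 5.08 and 5.07 in Ctrl. In all 4 genes the groups overlapped, and the part of any of these cell types in these values was not tested.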
